A study of Mus musculus with 6 samples.

Results

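The collagen chain genes of the mouse were followed in the jugular-nodose ganglia, where the sensory neurons of the vagus nerve have their cell bodies. A gene was taken as a member when its symbol was Col, a number, the letter a and a number, and 44 of the 32719 genes in the count files met this rule. They comprised 11 chains of the fibrillar collagens, 6 chains of the basement membrane type IV collagen and 6 chains of the beaded filament type VI collagen. There were also 9 chains of the FACIT collagens (fibril-associated collagens with interrupted triple helices), 2 multiplexins, 4 transmembrane collagens, 3 short-chain network collagens, the anchoring fibril chain Col7a1 and 2 chains outside these classes. The treated group had 3 libraries from male wild-type C57BL/6J mice that carried a subcutaneous osmotic pump with PBS and S961, a peptide that blocks the insulin receptor. The pump gave 10 nmol of S961 a week for 2 weeks. The control group had 3 libraries from such mice whose pumps held PBS alone. S961 stands in the treatment label of every library, those of the control group included, so the groups rest on the sample titles and the protocol. The tissue label of all 6 libraries names the spinal cord, whereas the cell label names the ganglia. Whether a library is 1 animal or a pool is not stated, and p-values therefore measure only how far these libraries spread, which may be technical.

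Collagens are the main structural proteins of the extracellular matrix, and each molecule is a triple helix of 3 chains built on a short repeat that begins with glycine. Fibrillar chains assemble into the banded fibres of connective tissue, type IV chains form the sheet-like network of basement membranes, and type VI chains form beaded filaments that lie between cells and fibres. In a peripheral ganglion the fibres lie in the capsule and the connective tissue around the nerve bundles. Basement membranes coat blood vessels, Schwann cells and the satellite glia that wrap each neuron. Fibroblasts, perineurial cells, mural cells, endothelial cells and Schwann cells are known sources of collagen in nerve.

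The libraries held 33522486, 27856590 and 12898607 gene counts in treated replicates 1, 2 and 3, against 17810346, 25749857 and 14844384 counts in control replicates 1, 2 and 3. All 9 sensory neuron markers reported here, the sodium channel gene Scn10a among them, were counted in every library. Their summed level was 2316 to 2993 CPM in treated libraries and 2562 to 2709 CPM in control libraries, where CPM are counts scaled to a common library size. Treated replicate 3 stood apart: its Pearson correlation of log2 CPM across genes with the other libraries was 0.919 to 0.936, against 0.971 to 0.986 among the other 5 libraries. Class medians, and the fold changes of some of the members, are therefore also given without that library. Collagen chains took 0.147%, 0.217% and 0.291% of the gene counts in treated replicates 1, 2 and 3, against 0.188%, 0.197% and 0.210% in control replicates 1, 2 and 3. By this unscaled share 1 treated library lay below and 2 above all control libraries. After scaling, the collagen sum was 1467, 2110.1 and 2985 CPM in treated replicates 1, 2 and 3, against 1915, 1949 and 2110.8 CPM in control replicates 1, 2 and 3, so 1 treated library lay below and 1 above all control libraries. The mean collagen sum was 2187 ± 762 CPM in treated libraries and 1991 ± 105 CPM in control libraries (SD, n = 3 each).

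All 44 chains were detected. Levels of different genes were compared as CPM per kb of exon, averaged over the 6 libraries. On this scale the type I chain Col1a1 was highest at 27.1, followed by the type IV chain Col4a1 at 25.2, the type V chain Col5a3 at 21.3, the type III chain Col3a1 at 20.8 and the type I chain Col1a2 at 20.1. Col4a2 at 18.9, Col28a1 at 18.6 and Col15a1 at 17.3 CPM per kb came next. Col16a1 at 12.0, Col24a1 at 11.6 and Col6a2 at 9.92 CPM per kb followed. The order at the top depended on which exons were counted as the gene's length, a choice added after the data were seen. With the longest coding transcript as the length, Col1a2 came first at 46.6 CPM per kb, followed by Col3a1 at 36.6, Col1a1 at 30.0 and Col4a1 at 28.5, and Col6a2 stood at 17.8. Chains of fibres and chains of basement membranes stood side by side at the top of the first order. The second order opened with the type I and type III chains, all above Col4a1. Col28a1 encodes a chain known from the basement membranes of peripheral glia, and Col5a3 is expressed by Schwann cells. Both stood beside the type I and type III chains in the first order. In the second order Col28a1 at 21.6 and Col5a3 at 23.7 CPM per kb stood below those chains. Fibrillar chains made up 47.8%, 50.5% and 58.2% of collagen counts in treated replicates 1, 2 and 3, against 53.6%, 48.6% and 53.3% in control replicates 1, 2 and 3. At the other end Col9a1 had 6, 14 and 2 counts in treated replicates 1, 2 and 3, against 10, 7 and 3 counts in control replicates 1, 2 and 3. It was the single member below the filter on low counts, so 43 members entered the test.

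**Figure D1:**
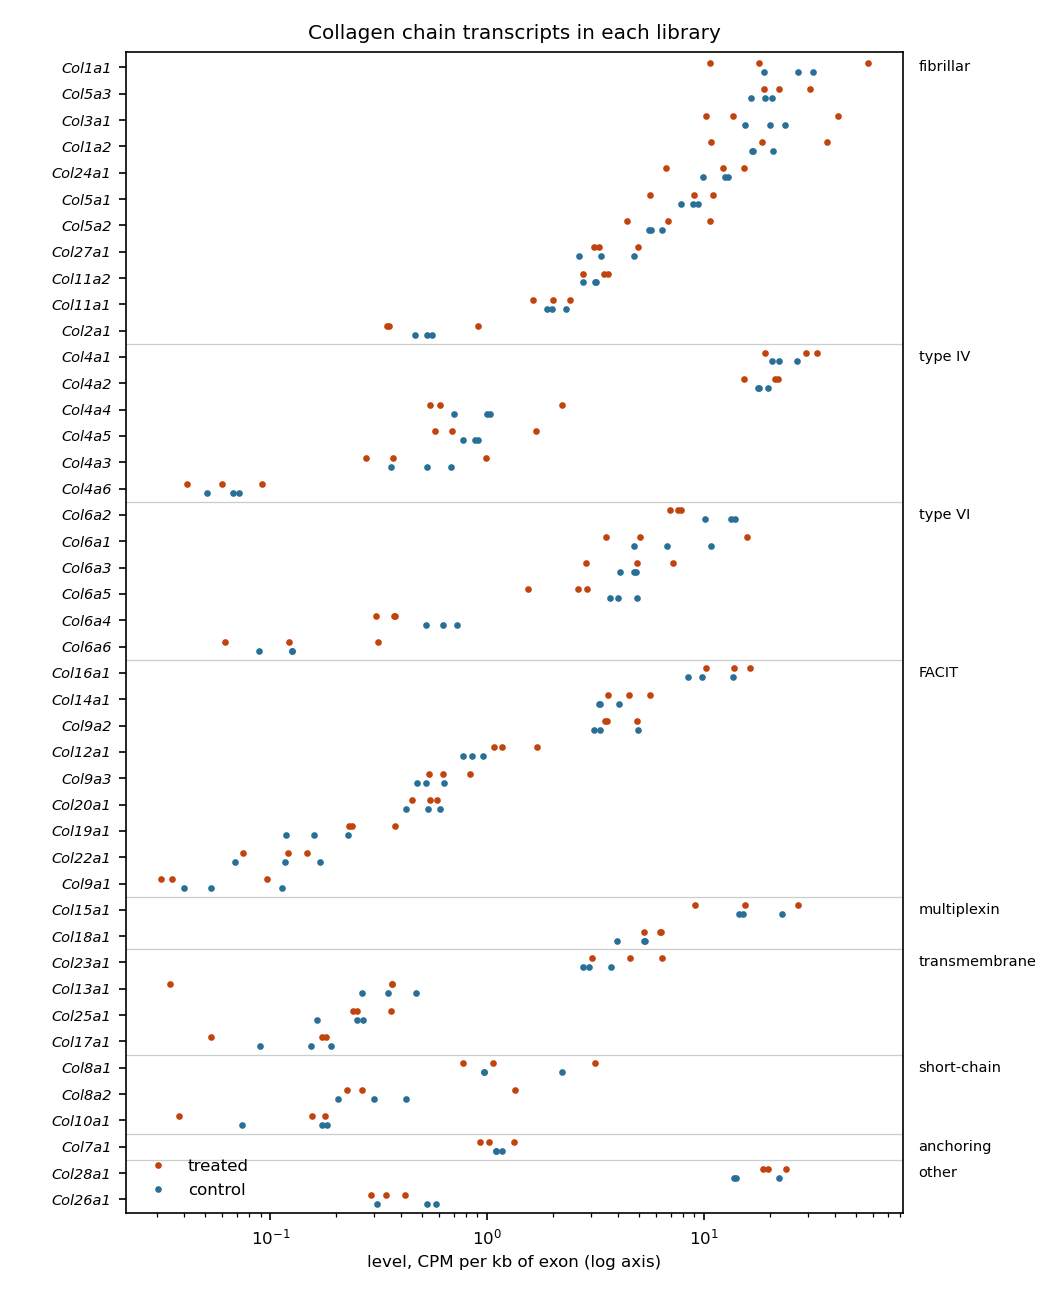
Level of each of the 44 collagen chain genes in each library, in CPM per kb of exon on a log axis, by structural class; orange points are the 3 treated libraries and blue points the 3 control libraries. Within each class genes run from the highest to the lowest mean level, with Col1a1 at 27.1 and Col4a1 at 25.2 CPM per kb over the 6 libraries.

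Treated and control ganglia were compared to see how these transcripts stand after the insulin receptor was blocked in the whole animal. No collagen chain gene passed the threshold in edgeR's quasi-likelihood test, adjusted by the Benjamini-Hochberg method over the 16019 genes tested, and 0% of all genes passed. The smallest adjusted p among members was 0.482, for Col6a2. Without the filter on low counts edgeR called 26 of 27618 genes (0.0941%), and the DESeq2 Wald test called 89 of 16019 (0.556%). In each of these 2 sets Col6a2 was the single collagen chain, lower in treated libraries. Limma-voom called 0 genes and, with sample weights, 8, with no collagen chain among them. At an unadjusted p under 0.05 edgeR had 1 member higher in treated libraries, Col12a1, where 640 of all genes (4%) were higher. It had 3 members lower, Col6a2, Col6a5 and Col6a4, where 428 of all genes (2.67%) were lower. Together these 4 members were 9.30% of the 43 tested, against 6.67% of all genes. All 3 treated libraries lay above all 3 control libraries for 2 members, Col12a1 and Col19a1, against 7.07% of all genes. All 3 treated libraries lay below all control libraries for 3 members, the same type VI chains, against 7.63% of all genes. Those shares of the 43 members are no higher than the shares over all genes. Of the 43 log2 fold changes (treated over control) 30 were positive and 13 negative. Their median was 0.12, and that of all genes tested was 0.02.

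The class medians of these log2 fold changes were 0.11 for the 11 fibrillar chains, 0.13 for the 6 type IV chains, -0.31 for the 6 type VI chains and 0.32 for the 8 FACIT chains tested. Leaving out treated replicate 3 turned the sign of the first 2, to -0.18 for fibrillar and -0.22 for type IV chains. Among single members it left Col1a1 at -0.85, Col1a2 at -0.30, Col4a1 at 0.066, Col4a2 at -0.0093, Col6a1 at -0.78 and Col6a3 at -0.24. Col14a1 stood at 0.18, Col15a1 at -0.52, Col23a1 at 0.26, Col13a1 at -0.0068 and Col8a1 at -0.57 without it. The same fit moved the type VI median to -0.69 and the FACIT median, over 9 chains, to 0.18. Without that library 1 member was higher at an unadjusted p under 0.05, against 3.63% of the 16747 genes tested, and 6 members were lower, against 4.31%. The higher member was again Col12a1. The lower ones were Col6a2, Col6a4 and Col6a5, joined by the type III chain Col3a1, the type II chain Col2a1 and the type IV chain Col4a4. No member passed the adjusted threshold in that fit, where the smallest adjusted p in edgeR was 0.142, for Col6a2.

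**Figure D2:**
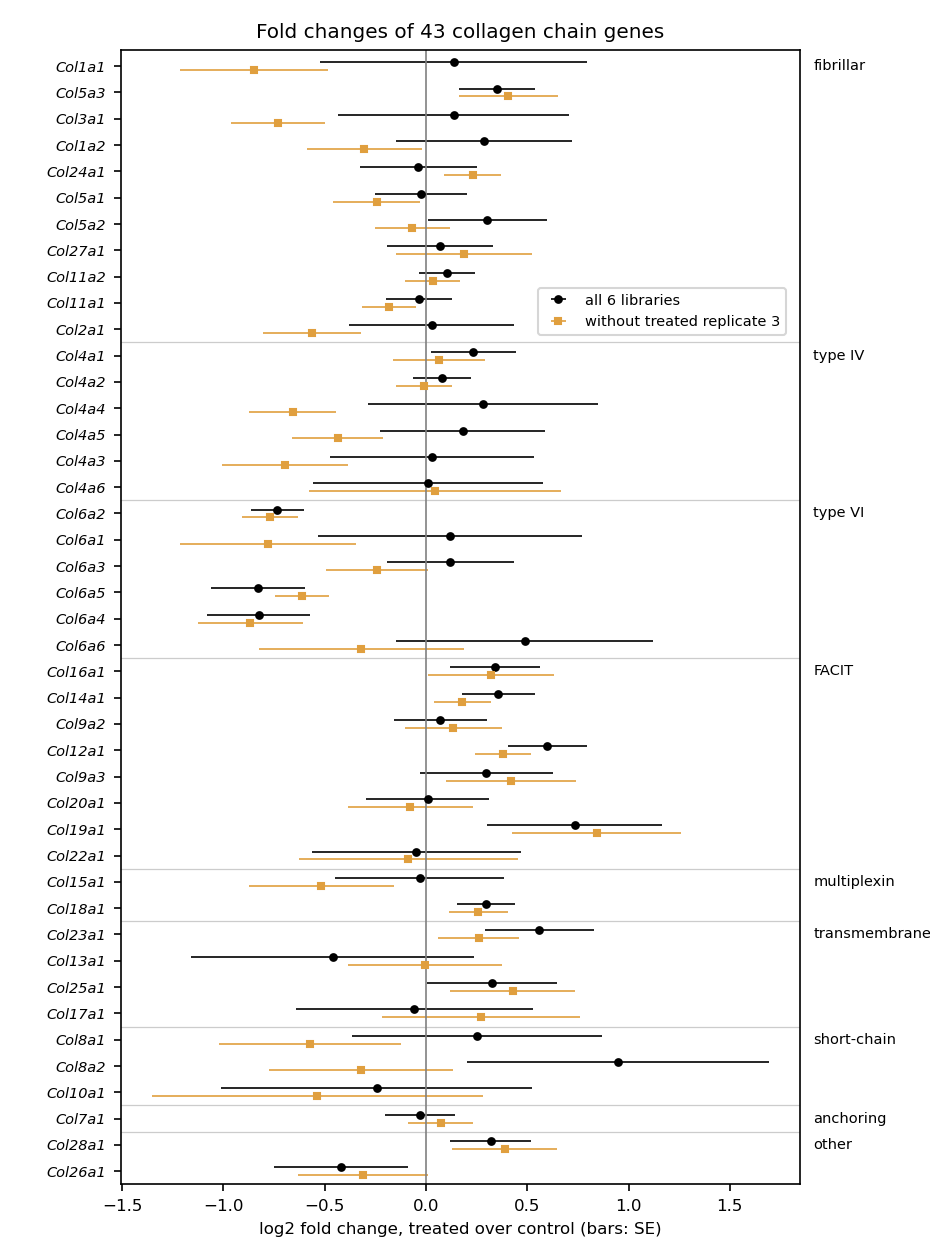
Log2 fold change of the 43 tested collagen chain genes, treated over control, with bars of 1 SE; black circles use all 6 libraries and orange squares leave out treated replicate 3. Col1a1 and Col3a1 lie at 0.14 with all libraries and at -0.85 and -0.73 without treated replicate 3, whereas Col6a2, Col6a4 and Col6a5 lie below 0 in both fits.

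Among the fibrillar chains Col1a1, the chain present in a pair of copies in type I collagen, had 70.1, 118 and 372 CPM in treated replicates 1, 2 and 3, against 178, 123 and 207 CPM in control replicates 1, 2 and 3. Treated replicates 1 and 2 were below every control library and treated replicate 3 was above every control library. Its log2 fold change was 0.14 ± 0.66 (SE, adjusted p = 0.972, edgeR). Col3a1, the chain of type III collagen that forms fine reticular fibres, had 99.7, 134 and 407 CPM in treated replicates 1, 2 and 3, against 198, 152 and 232 CPM in control replicates 1, 2 and 3. It had the same order of treated libraries as Col1a1. Its log2 fold change was 0.14 ± 0.57 (SE, adjusted p = 0.967, edgeR), and without treated replicate 3 it was -0.73 ± 0.23. Col5a3, a type V chain that Schwann cells express, had 128, 210.4 and 150.3 CPM in treated replicates 1, 2 and 3, against 130.1, 140.3 and 112 CPM in control replicates 1, 2 and 3. Its highest library was treated replicate 2 and the groups overlapped. Its log2 fold change of 0.35 ± 0.19 was the largest of the class (SE, adjusted p = 0.742, edgeR). The other 8 fibrillar chains were Col1a2, Col2a1, Col5a1, Col5a2, Col11a1, Col11a2, Col24a1 and Col27a1. Their groups all overlapped, and their log2 fold changes ran from -0.04 to 0.30. Of the 11 fibrillar chains 8 were highest of all 6 libraries in treated replicate 3 and 7 were lowest in treated replicate 1.

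The type IV chains are encoded as 3 pairs of adjacent genes. Col4a1 and Col4a2, which encode the most widespread type IV molecule, lie head to head on chromosome 8 in GRCm38, the build that mm10 also names. Col4a1 spans chr8:11198423-11312826 on the minus strand and Col4a2 spans chr8:11312805-11449287 on the plus strand, so that the annotated genes overlap by 22 bp. Their promoters are printed here because they overlap: the windows, 250 bases before to 50 bases after each start, have 78 bp in common. The sequences are RefSeq's, on GRCm38.p6, for chr8:11312777-11313076 (minus strand) and chr8:11312555-11312854 (plus strand), each 5′ to 3′ along its gene. Capitals mark the CCAAT box (letters CCAAT), the GC box (letters GGGCGG) and the TATA box (letters TATAAA) on either strand, and overlapping matches run together.
Col4a1: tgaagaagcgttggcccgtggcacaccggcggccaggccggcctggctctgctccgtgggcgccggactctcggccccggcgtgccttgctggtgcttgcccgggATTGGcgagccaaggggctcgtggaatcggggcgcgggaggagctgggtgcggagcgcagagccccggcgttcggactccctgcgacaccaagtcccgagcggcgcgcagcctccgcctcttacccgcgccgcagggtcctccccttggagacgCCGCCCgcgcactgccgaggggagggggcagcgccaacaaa
Col4a2: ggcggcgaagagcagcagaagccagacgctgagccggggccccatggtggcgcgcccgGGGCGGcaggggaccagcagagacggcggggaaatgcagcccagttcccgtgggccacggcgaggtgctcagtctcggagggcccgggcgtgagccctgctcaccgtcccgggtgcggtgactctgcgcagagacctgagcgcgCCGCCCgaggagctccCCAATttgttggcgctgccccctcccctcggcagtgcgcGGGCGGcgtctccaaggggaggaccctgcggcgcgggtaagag
The Col4a1 window held 1 CCAAT box and 1 GC box. The Col4a2 window held 1 CCAAT box and 3 GC boxes. The GC box of the Col4a1 window and the last GC box of the Col4a2 window are the same site. It lies in the stretch in common and is read on opposite strands. Windows were found for 35 of the 44 collagen genes, some with more than 1 start, 38 windows in all. A CCAAT box stood in 34.2% of these 38 windows and in 37.4% of all 32817 RefSeq windows of this length. A GC box stood in 60.5% of the collagen windows and in 35.6% of all windows, and a TATA box in 13.2% of the collagen windows and in 13.6% of all windows. A match of letters is a description and not evidence that a factor binds.

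Col4a1 had 143, 219 and 248 CPM in treated replicates 1, 2 and 3, against 165, 201 and 153 CPM in control replicates 1, 2 and 3. Treated replicate 1 was the lowest library and treated replicate 3 the highest. The fitted log2 fold change was 0.23 ± 0.21 (SE, adjusted p = 0.799, edgeR). Col4a2 had 101 CPM, 141 CPM and 145 CPM in treated replicates 1, 2 and 3, against 118, 130.3 and 117 CPM in control replicates 1, 2 and 3. It followed the order of Col4a1 in the treated libraries and in the controls. In log2 the fold change was 0.08 ± 0.14 (SE, adjusted p = 0.905, edgeR). The ratio of Col4a1 to Col4a2 per kb was 1.25, 1.38 and 1.52 in treated replicates 1, 2 and 3, against 1.24, 1.37 and 1.16 in control replicates 1, 2 and 3, so the highest ratio was 1.31 times the lowest.

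The other pairs were much lower per kb. Col4a4 and Col4a3, chains of the glomerular type IV network, lie head to head on chromosome 1 with a gap of 71 bp, and Col4a6 and Col4a5 lie head to head on the X chromosome with a gap of 1308 bp. Col4a4 had 5.74, 6.41 and 23.5 CPM in treated replicates 1, 2 and 3, against 10.6, 7.42 and 10.9 CPM in control replicates 1, 2 and 3. Treated replicates 1 and 2 were below every control library and treated replicate 3 was above them. The fitted log2 fold change was 0.28 ± 0.57 (SE, adjusted p = 0.920, edgeR), and -0.66 ± 0.21 without treated replicate 3. The 3 remaining chains, Col4a3, Col4a5 and Col4a6, had log2 fold changes between 0.01 and 0.18, with overlapping groups. For Col4a5, as for Col4a4, treated replicates 1 and 2 were below every control library and treated replicate 3 was above them. Col4a3 was lowest of all libraries in treated replicate 1 and highest in treated replicate 3. Of the 6 type IV chains 5 were highest in treated replicate 3 and all 6 were lowest in treated replicate 1.

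The type VI chains divided into 3 whose treated libraries all lay below the controls and 3 whose treated libraries were spread around them. The basic type VI molecule combines 1 chain each of Col6a1, Col6a2 and Col6a3, and Col6a4, Col6a5 and Col6a6 encode chains that resemble the Col6a3 chain and can take its place. Col6a2 and Col6a1 lie in the same direction on chromosome 10, 85161 bp apart. Col6a6, Col6a5 and Col6a4 lie in a row on chromosome 9, with gaps of 27917 bp and 28810 bp. The promoters of the 3 chains with separated groups are shown, with that of Col6a1 as the neighbour of Col6a2 whose groups overlapped. They lie at chr10:76623581-76623880 (Col6a2), chr9:105960594-105960893 (Col6a5), chr9:106096642-106096941 (Col6a4) and chr10:76725995-76726294 (Col6a1), all on the minus strand, with motifs in capitals as above.
Col6a2: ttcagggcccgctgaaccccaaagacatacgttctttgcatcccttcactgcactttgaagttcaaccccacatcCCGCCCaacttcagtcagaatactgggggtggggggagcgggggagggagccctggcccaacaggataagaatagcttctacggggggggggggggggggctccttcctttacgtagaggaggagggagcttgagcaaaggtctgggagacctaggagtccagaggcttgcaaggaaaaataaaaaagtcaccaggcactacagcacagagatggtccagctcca
Col6a5: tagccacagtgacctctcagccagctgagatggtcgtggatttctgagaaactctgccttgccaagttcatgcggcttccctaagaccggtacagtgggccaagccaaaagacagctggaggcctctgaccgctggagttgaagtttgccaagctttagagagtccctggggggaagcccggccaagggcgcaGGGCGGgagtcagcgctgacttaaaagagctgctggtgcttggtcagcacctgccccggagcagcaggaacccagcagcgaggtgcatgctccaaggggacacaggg
Col6a4: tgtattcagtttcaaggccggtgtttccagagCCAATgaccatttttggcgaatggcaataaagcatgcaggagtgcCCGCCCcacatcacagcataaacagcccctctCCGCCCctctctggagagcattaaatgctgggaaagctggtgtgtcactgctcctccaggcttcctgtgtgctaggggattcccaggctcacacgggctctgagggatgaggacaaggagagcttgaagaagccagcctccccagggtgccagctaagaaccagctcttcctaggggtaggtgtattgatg
Col6a1: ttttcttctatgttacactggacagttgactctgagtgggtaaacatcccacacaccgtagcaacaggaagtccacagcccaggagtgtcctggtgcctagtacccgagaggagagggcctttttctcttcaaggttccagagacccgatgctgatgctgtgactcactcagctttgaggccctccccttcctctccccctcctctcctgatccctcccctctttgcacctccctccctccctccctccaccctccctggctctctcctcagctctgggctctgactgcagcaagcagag
The Col6a2 window held 1 GC box, the Col6a5 window 1, the Col6a4 window 2 and the Col6a1 window 0. RefSeq gives Col6a2 another start, with a window at chr10:76623355-76623654 that held 3 GC boxes. The Col6a6 window held 2 and the Col6a3 window 0.

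Col6a2 (ENSMUSG00000020241, chr10:76595762-76623630, minus strand) had 63.0, 57.7 and 65.4 CPM in treated replicates 1, 2 and 3, against 110.5, 84.0 and 115 CPM in control replicates 1, 2 and 3. The treated libraries lay close together and all were below the lowest control library. The mean was 62.0 ± 3.95 CPM in treated libraries and 103 ± 16.8 CPM in control libraries (SD, n = 3 each). The log2 fold change was -0.73 ± 0.13 (SE), or 0.601 of the control level, with an unadjusted p of 0.000592 and an adjusted p of 0.482 in edgeR. The DESeq2 Wald test gave an adjusted p of 0.00095, and edgeR without the filter on low counts gave 0.0151. Over 16 alternative settings the log2 fold change stayed between -0.87 and -0.65, while its adjusted p in edgeR, DESeq2 and limma ran from 0.00095 to 0.995. The highest was reached without control replicate 1.

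Col6a5 (ENSMUSG00000091345, chr9:105856078-105960643, minus strand) had 24.5, 27.1 and 14.6 CPM in treated replicates 1, 2 and 3, against 37.6, 34.7 and 46.2 CPM in control replicates 1, 2 and 3. Every treated library was below every control library, and treated replicate 3 was the lowest. The log2 fold change was -0.83 ± 0.23 (SE, unadjusted p = 0.00825, adjusted p = 0.654, edgeR). Col6a4 (ENSMUSG00000032572, chr9:105989454-106096783, minus strand) had 2.62, 3.17 and 3.18 CPM in treated replicates 1, 2 and 3, against 5.33, 4.42 and 6.15 CPM in control replicates 1, 2 and 3. Here too the groups did not overlap, at counts of 40 to 91 in treated libraries and 91 to 115 in control libraries. The log2 fold change was -0.83 ± 0.25 (SE, unadjusted p = 0.0123, adjusted p = 0.670, edgeR). For each of these 3 chains a 2-sided exact permutation test of log2 CPM gave p = 0.1, the smallest that 3 against 3 libraries allow.

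Col6a1 had 15.4, 22.3 and 69.3 CPM in treated replicates 1, 2 and 3, against 29.6, 20.8 and 47.2 CPM in control replicates 1, 2 and 3. Treated replicate 1 was the lowest library and treated replicate 3 the highest, as for Col1a1. The fitted log2 fold change was 0.12 ± 0.65 (SE, adjusted p = 0.974, edgeR). Col6a3 had 34.0, 58.4 and 86.2 CPM in treated replicates 1, 2 and 3, against 48.8, 56.8 and 58.0 CPM in control replicates 1, 2 and 3. Treated replicate 1 lay below every control library, and treated replicates 2 and 3 lay above every control library. In log2 the fold change was 0.12 ± 0.31 (SE, adjusted p = 0.937, edgeR). Col6a6 also rose over treated replicates 1, 2 and 3, at 19 to 36 counts in treated libraries and 12 to 30 counts in control libraries. In CPM its treated replicate 2 lay below control replicates 1 and 2. Its log2 fold change was 0.49 ± 0.63 (SE, adjusted p = 0.865, edgeR). Without treated replicate 3 all 6 type VI log2 fold changes were negative. Summed over the class, type VI chains had 140, 170 and 242 CPM in treated replicates 1, 2 and 3, against 233, 202 and 274 CPM in control replicates 1, 2 and 3. They made up 9.56%, 8.04% and 8.09% of collagen counts in treated replicates 1, 2 and 3, against 12.2%, 10.3% and 13.0% in control replicates 1, 2 and 3.

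**Figure D3:**
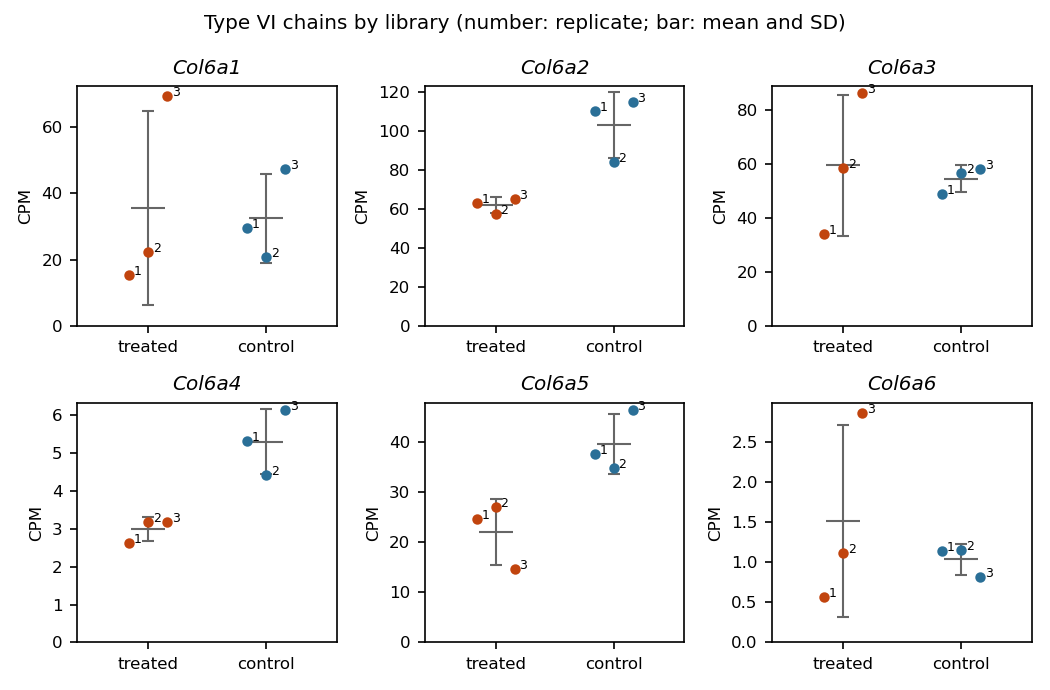
Level of each type VI chain in CPM in the 3 treated libraries (orange, left) and the 3 control libraries (blue, right); numbers are replicates and grey bars the mean with 1 SD. The groups are apart for Col6a2 (57.7 to 65.4 CPM treated, 84.0 to 115 CPM control), Col6a4 and Col6a5, and overlap for Col6a1, Col6a3 and Col6a6, where treated replicate 3 is highest.

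The ratio of chains that share a trimer or a fibril was followed per kb in each library, as was that of Col6a5 to Col6a3, whose place it can take. The ratio of Col6a2 to Col6a1 was 2.15, 1.36 and 0.497 in treated replicates 1, 2 and 3, against 1.97, 2.13 and 1.28 in control replicates 1, 2 and 3. Its highest library was 4.32 times its lowest, and the low end was treated replicate 3. The ratio of Col6a2 to Col6a3 was 2.66, 1.42 and 1.09 in treated replicates 1, 2 and 3, against 3.25, 2.13 and 2.85 in control replicates 1, 2 and 3. That of Col6a5 to Col6a3 was 0.916, 0.589 and 0.215 in treated replicates 1, 2 and 3, against 0.979, 0.776 and 1.01 in control replicates 1, 2 and 3. Both ratios to Col6a3 had their 2 lowest values in treated replicates 2 and 3, while treated replicate 1 lay among the controls. Several other ratios spanned less. The ratio of Col3a1 to Col1a1 spanned 1.30-fold over the 6 libraries, that of Col4a1 to Col4a2 1.31-fold and that of Col9a2 to Col9a3 1.41-fold. The ratio of Col1a2 to Col1a1 was 1.01, 1.03 and 0.651 in treated replicates 1, 2 and 3, against 0.614, 0.894 and 0.658 in control replicates 1, 2 and 3. That of Col5a3 to Col5a1 spanned 1.94-fold, and that of Col4a5 to Col4a6 spanned 3.77-fold, with Col4a6 at 6 to 21 counts in treated libraries and 6 to 14 counts in control libraries. Col9a3 shares 6.07% of its exon bases with Tcfl5 on the opposite strand, and the strand setting of the counting is not stated, so part of its reads could come from that gene.

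**Figure D4:**
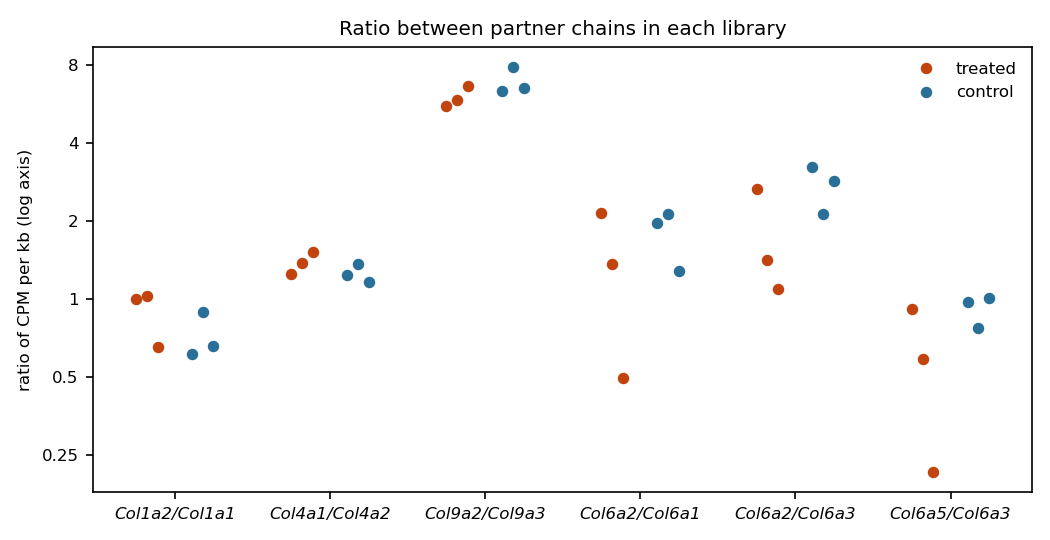
Ratio of partner chains, and of Col6a5 to Col6a3, whose place it can take, in each library, from CPM per kb, on a log axis. Treated libraries are orange and stand left of the control libraries in blue, each in the order of replicates 1 to 3. Col4a1/Col4a2 stays between 1.16 and 1.52, whereas Col6a2/Col6a1 runs from 0.497 in treated replicate 3 to 2.15 in treated replicate 1.

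The FACIT chains sit on the surface of fibrils. Of the 8 tested, 7 stood above 0 in log2 fold change and 1, Col22a1, below 0, over a range of -0.05 to 0.73. Col12a1 (ENSMUSG00000032332, chr9:79598991-79718831, minus strand), a chain found on type I fibrils of dense connective tissue, had 16.4, 17.9 and 25.7 CPM in treated replicates 1, 2 and 3, against 11.8, 14.6 and 13.0 CPM in control replicates 1, 2 and 3. Every treated library was above every control library. The log2 fold change was 0.60 ± 0.19 (SE, unadjusted p = 0.0160, adjusted p = 0.685, edgeR), and 0.38 ± 0.14 without treated replicate 3. Col19a1 (ENSMUSG00000026141, chr1:24261890-24587472, minus strand), a rare chain made by some neurons of the mouse brain, had 2.59, 1.64 and 1.59 CPM in treated replicates 1, 2 and 3, against 1.09, 1.58 and 0.811 CPM in control replicates 1, 2 and 3. The groups did not overlap, but the lowest treated library and the highest control library were 1.59 and 1.58 CPM. The log2 fold change was 0.73 ± 0.43 (SE, adjusted p = 0.745, edgeR). For both chains the 2-sided exact permutation test gave p = 0.1.

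Col16a1, the highest FACIT chain per kb, had 69.1, 109.7 and 92.5 CPM in treated replicates 1, 2 and 3, against 65.9, 91.2 and 57.0 CPM in control replicates 1, 2 and 3. The fitted log2 fold change was 0.34 ± 0.22 (SE, adjusted p = 0.754, edgeR) and its groups overlapped. Col14a1, a FACIT chain of interstitial fibrils, had 25.1, 31.5 and 39.5 CPM in treated replicates 1, 2 and 3, against 23.0, 28.4 and 23.3 CPM in control replicates 1, 2 and 3. Control replicate 2 alone lay within the treated range, and the log2 fold change was 0.36 ± 0.18 (SE, adjusted p = 0.742, edgeR). Col9a2, a type IX chain best known from cartilage, had 10.8, 15.1 and 11.1 CPM in treated replicates 1, 2 and 3, against 10.3, 15.3 and 9.60 CPM in control replicates 1, 2 and 3. Both groups were highest in replicate 2, and the log2 fold change was 0.07 ± 0.23 (SE, adjusted p = 0.950, edgeR). The remaining tested chains, Col9a3, Col20a1 and Col22a1, lay between -0.05 and 0.30. In the controls 7 of the 8 FACIT chains, all but Col22a1, were highest in replicate 2, whereas 5 of the 6 type VI chains were highest in replicate 3.

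The multiplexins carry a long interrupted helix and are found in basement membrane zones. Col15a1 had 57.6, 97.6 and 172 CPM in treated replicates 1, 2 and 3, against 92.1, 96.1 and 145 CPM in control replicates 1, 2 and 3. Replicate 3 was highest in both groups, and the log2 fold change was -0.03 ± 0.42 (SE, adjusted p = 0.989, edgeR). Col18a1, the precursor of endostatin, had 37.0, 44.5 and 44.0 CPM in treated replicates 1, 2 and 3, against 27.8, 37.3 and 37.0 CPM in control replicates 1, 2 and 3. Treated replicate 1 lay just below control replicates 2 and 3 and the other treated libraries above all controls, and the log2 fold change was 0.29 ± 0.14 (SE, adjusted p = 0.742, edgeR).

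The transmembrane collagen Col23a1 had 17.4, 25.9 and 36.8 CPM in treated replicates 1, 2 and 3, against 15.8, 21.4 and 16.9 CPM in control replicates 1, 2 and 3. Treated replicate 1 lay below control replicate 2 and the other treated libraries above all controls, with a log2 fold change of 0.56 ± 0.27 (SE, adjusted p = 0.742, edgeR). Col25a1, known in the mouse for a part in motor innervation of muscle, had 4.64, 3.24 and 3.10 CPM in treated replicates 1, 2 and 3, against 2.12, 3.23 and 3.45 CPM in control replicates 1, 2 and 3. The groups overlapped, with a log2 fold change of 0.33 ± 0.32 (SE, adjusted p = 0.815, edgeR). Col13a1, a transmembrane chain of the neuromuscular junction, had 56, 48 and 2 counts in treated replicates 1, 2 and 3, against 28, 56 and 18 counts in control replicates 1, 2 and 3. The low value was that of treated replicate 3 alone, and the log2 fold change was -0.46 ± 0.70 (SE, adjusted p = 0.884, edgeR). Col17a1, the hemidesmosome collagen of skin, lay at -0.06 ± 0.58 (SE).

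Of the short-chain network collagens, Col8a1, a chain of vessel walls and of the cornea, had 6.04, 8.36 and 24.6 CPM in treated replicates 1, 2 and 3, against 7.57, 7.54 and 17.3 CPM in control replicates 1, 2 and 3. Replicate 3 was highest in both groups, and the log2 fold change was 0.25 ± 0.62 (SE, adjusted p = 0.935, edgeR). Its partner Col8a2 had 1.19, 1.01 and 6.05 CPM in treated replicates 1, 2 and 3, against 0.917, 1.35 and 1.89 CPM in control replicates 1, 2 and 3. Its log2 fold change of 0.95 ± 0.74 (SE, adjusted p = 0.779, edgeR) was the highest of the 43 members and became -0.32 without treated replicate 3. Col10a1, the growth plate chain, had 4 to 14 counts in treated libraries and 6 to 10 counts in control libraries, too few to show a difference at this depth. Its log2 fold change was -0.24 ± 0.77 (SE).

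Col7a1, the chain of the anchoring fibrils of skin, had 13.6, 10.5 and 9.55 CPM in treated replicates 1, 2 and 3, against 11.2, 11.3 and 12.0 CPM in control replicates 1, 2 and 3. The groups overlapped, and the log2 fold change was -0.03 ± 0.17 (SE, adjusted p = 0.975, edgeR). Col28a1 had 96.7, 117 and 91.3 CPM in treated replicates 1, 2 and 3, against 67.0, 108 and 68.7 CPM in control replicates 1, 2 and 3. Control replicate 2 alone reached the treated range, and the log2 fold change was 0.32 ± 0.20 (SE, adjusted p = 0.748, edgeR). Col26a1 had 2.80, 3.41 and 2.39 CPM in treated replicates 1, 2 and 3, against 2.52, 4.31 and 4.73 CPM in control replicates 1, 2 and 3. The groups overlapped, and the log2 fold change was -0.42 ± 0.33 (SE, adjusted p = 0.780, edgeR).

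Much of the spread followed single libraries rather than groups. Treated replicate 3 was the highest of the 6 libraries for 22 of 43 members (51.2%), against 34.4% of all genes tested. Treated replicate 1 was the lowest for 20 of 43 members (46.5%), against 11.5% of all genes. Treated replicate 3 was also the lowest library for 6 members (14.0%), Col6a5, Col7a1, Col13a1, Col17a1, Col24a1 and Col26a1, against 34.3% of all genes. The summed levels of fibroblast, perineurial, mural, endothelial, Schwann cell, satellite glia, macrophage, neutrophil and fat cell markers had that order too. Among the treated libraries they were lowest in replicate 1 and highest in replicate 3. The sum of the sensory neuron markers had the opposite order. Single markers did not all follow these sums. Treated replicate 3 was the highest treated library for 4 of 9 Schwann cell and 4 of 7 satellite glia markers. It was so for 6 of 9 endothelial and 7 of 9 mural cell markers. Of the 9 sensory neuron markers 5 were highest among the treated libraries in replicate 1 and 2 in replicate 2. The other 2, Prdm12 and Pou4f1, were highest in treated replicate 3. All 10 fibroblast markers were counted in every library. Their summed level was 471, 778.5 and 1768 CPM in treated replicates 1, 2 and 3, against 723, 561.5 and 997 CPM in control replicates 1, 2 and 3. All 10 were highest among the treated libraries in replicate 3, and 8 of 10 were highest among the controls in replicate 3. The fibroblast markers Dcn and Lum also stand in the list of fibril proteoglycans below. The 7 perineurial markers summed to 281, 398 and 584 CPM in treated replicates 1, 2 and 3, against 294, 353 and 382 CPM in control replicates 1, 2 and 3. The 9 mural cell markers summed to 129, 182 and 248 CPM in treated replicates 1, 2 and 3, against 128, 164 and 149 CPM in control replicates 1, 2 and 3. The 9 endothelial markers summed to 170.0, 207 and 221 CPM in treated replicates 1, 2 and 3, against 191, 197 and 171 CPM in control replicates 1, 2 and 3.

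The 9 Schwann cell markers summed to 1720, 2562 and 2609 CPM in treated replicates 1, 2 and 3, against 1361, 2189 and 1467 CPM in control replicates 1, 2 and 3. All 9 were highest among the controls in replicate 2, the library in which 7 of 8 FACIT chains and Col28a1 were highest too. So were 6 of the 7 satellite glia markers, 5 of the 9 mural cell markers and 33.7% of all genes tested. The 7 satellite glia markers summed to 2720, 3204 and 3661 CPM in treated replicates 1, 2 and 3, against 2445, 3270 and 2627 CPM in control replicates 1, 2 and 3. The 9 fat cell markers summed to 8.30, 59.1 and 497 CPM in treated replicates 1, 2 and 3, against 38.9, 11.6 and 23.6 CPM in control replicates 1, 2 and 3, with Lep at 0 counts in control replicate 1. The 8 macrophage markers summed to 41.3, 81.3 and 278 CPM in treated replicates 1, 2 and 3, against 49.6, 34.7 and 77.0 CPM in control replicates 1, 2 and 3. The 7 neutrophil markers summed to 1.76, 5.85 and 22.9 CPM in treated replicates 1, 2 and 3, against 2.29, 1.19 and 6.01 CPM in control replicates 1, 2 and 3, with Ly6g, Retnlg and Cxcr2 at 0 counts in some of them. The 8 muscle markers summed to 24.2 to 60.0 CPM in treated and 45.5 to 192 CPM in control libraries. The 10 cartilage and bone markers summed to 29.0 to 29.6 CPM in treated and 20.7 to 29.7 CPM in control libraries, with Matn3, Ucma, Acan, Matn1, Sp7 and Bglap at 0 counts in some of them. In such whole-tissue libraries fewer cells of a type and less RNA per cell cannot be told apart, and the part these cell types have in any collagen value was not tested.

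**Figure D5:**
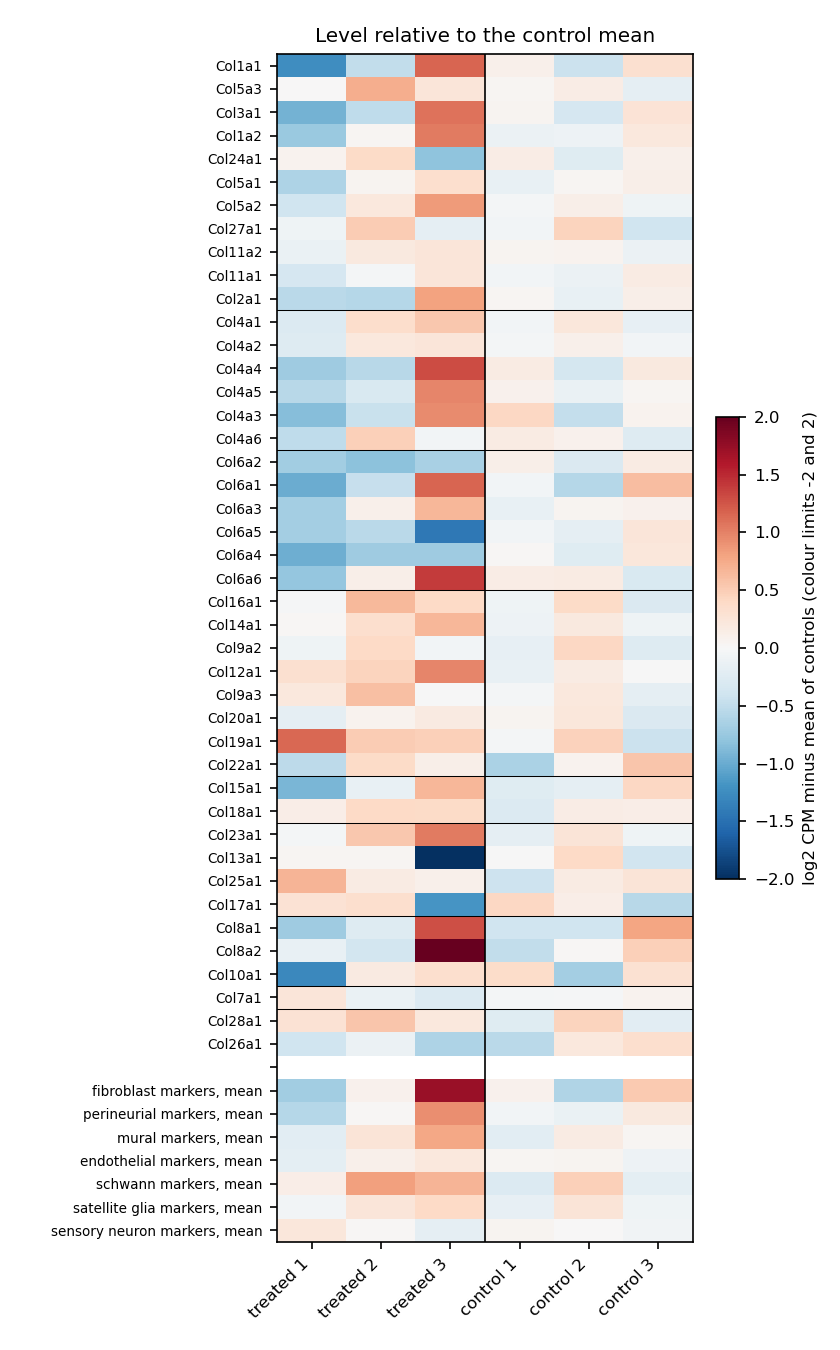
Log2 CPM of the 43 tested collagen chain genes and mean log2 CPM of 7 marker lists in each library, relative to the mean of the 3 control libraries; red is higher and blue lower, with colours limited to -2 and 2. Treated replicate 1 is blue and treated replicate 3 red for most fibrillar and type IV chains and for fibroblast markers, whose mean stood at -0.70 and 1.73, whereas Col6a2, Col6a4 and Col6a5 are blue in all 3 treated libraries.

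The genes that modify, cut and bind collagen were described by lists chosen with earlier results of these data known. All 30 genes for collagen processing, which hydroxylate, fold, export, trim and cross-link the chains, were tested. None passed the edgeR threshold, 3 were higher and 2 lower at an unadjusted p under 0.05, and their median log2 fold change was 0.16. These 5 genes were 16.7% of the list, against 6.67% of all genes. Where the groups of a gene did not overlap, the treated libraries were the higher ones for 5, against 7.07% of all genes, and the lower ones for 3, against 7.63%. Lox, the lysyl oxidase that starts the cross-linking of fibrils, had 14.5, 15.9 and 9.55 CPM in treated replicates 1, 2 and 3, against 26.1, 20.7 and 24.2 CPM in control replicates 1, 2 and 3. Every treated library was below every control library. The log2 fold change was -0.82 ± 0.20 (SE, unadjusted p = 0.00413, adjusted p = 0.607, edgeR). Colgalt2, a galactosyltransferase that modifies hydroxylysine, had 30.1, 28.7 and 31.6 CPM in treated replicates 1, 2 and 3, against 23.1, 26.7 and 21.1 CPM in control replicates 1, 2 and 3. Its groups did not overlap, with a log2 fold change of 0.35 ± 0.12 (SE, adjusted p = 0.696, edgeR). Adamts3, a protease that can remove the amino-terminal propeptide of procollagen, had 9.02, 7.56 and 13.2 CPM in treated replicates 1, 2 and 3, against 6.36, 6.89 and 5.41 CPM in control replicates 1, 2 and 3. Its groups did not overlap either, with a log2 fold change of 0.66 ± 0.24 (SE, adjusted p = 0.721, edgeR).

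Of 12 small proteoglycans that coat fibrils 10 were tested, all 10 with log2 fold changes above 0 (median 0.54), and edgeR gave 0 of 10 an unadjusted p under 0.05. The 3 with the smallest p were Podn at 0.69 ± 0.65, Ogn at 0.44 ± 0.46 and Prelp at 0.65 ± 0.78 (SE). Their groups overlapped, and without treated replicate 3 the values were -0.12 for Podn, -0.15 for Ogn and -0.51 for Prelp. Of 11 collagen receptors 10 were tested, 9 with log2 fold changes above 0 and 1 below 0 (median 0.37). The edgeR test called 0 of them and gave 1 (10% of those tested) an unadjusted p under 0.05, against 6.67% of all genes. The integrin chain gene Itga1, part of a receptor for type IV collagen, had 23.3, 31.9 and 39.2 CPM in treated replicates 1, 2 and 3, against 20.9, 26.3 and 20.9 CPM in control replicates 1, 2 and 3. Control replicate 2 lay within the treated range, and the log2 fold change was 0.47 ± 0.20 (SE, unadjusted p = 0.0485, adjusted p = 0.737, edgeR). Adgrg1, a receptor for type III collagen, stood at 0.34 ± 0.16 (SE). Its lowest treated library, at 96.2 CPM, lay close to its highest control library, at 95.9 CPM. Every treated library was above every control library. That held for 2 of the 10 receptors tested, against 7.07% of all genes. Every treated library was below every control library for 1 receptor, Itga2, at -0.85 ± 0.46 (SE), against 7.63% of all genes. Itga11, a receptor chain for fibrillar collagen, stood at 0.91 ± 0.45 (SE) with overlapping groups.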

How the data were processed

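RNA from 6 ganglion libraries was sequenced. Per the labels' protocols, a strand-specific low-input kit was used on some 6 ng of RNA per library. RNA integrity numbers ran from 6.6 to 9.1 over the study, and reads were 100 bp long. The submitters' processing notes name bcl2fastq 2.20, STAR 2.7.7a, DESeq2, edgeR and mm10. The deposited values are raw exonic counts per gene, 1 file per library, per the file headers. Which program, annotation release and strand setting made the counts is not given in the sources used here. Between 46.6% and 52.3% of reads overlapped a gene. Names and coordinates came from GENCODE M21 (GRCm38), where all 44 collagen identifiers matched with the same symbol, and promoter sequences from RefSeq.

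The counts were fitted in edgeR 4.0.16 (R 4.3.3). Low counts were filtered with filterByExpr (minimum count 10), libraries were scaled with TMM, edgeR's trimmed mean method, and treated was compared with control by the robust quasi-likelihood F test, with Benjamini-Hochberg adjustment over all genes and a threshold of 0.05. The SE of a log2 fold change is its size over the square root of F. CPM use the TMM-adjusted library size, and log2 CPM had a prior count of 2. CPM per kb divides by the union of a gene's exons. The fit was tested on simulated counts. Alternatives were other scalings, a stricter filter (5 CPM in 3 libraries) or none, DESeq2 1.42.0, limma-voom of limma 3.58.1 with and without sample weights, no robust shrinkage, the replicate number as a block, a threshold of 0.1, and each library left out in turn.

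Values by library are given for the 3 highest members per kb of each class, the 10 members with the smallest p and members whose groups do not overlap. Of each list of related genes, the 3 genes with the smallest p are named. Col1a2, the partner chains in ratios and genes named for a pattern of the libraries fall outside that rule and were chosen after their values were seen. Members and lists were chosen with earlier results of these data known. A further sensory neuron marker is not reported here and is left out of that list's values.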

Additional observations from a re-analysis of the deposited data

How the results depend on the processing

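The count of called genes, 0 in edgeR, became 26 without the filter on low counts, 89 in the DESeq2 Wald test and 8 in limma-voom with sample weights, and ran from 0 to 9 over the fits that left out 1 library (7 without treated replicate 1, 9 without treated replicate 3). The count of collagen chains called became 1, Col6a2, without the filter and in DESeq2, and was 0 under every other setting run. The median log2 fold change ran from -0.18 to 0.24 for fibrillar, -0.22 to 0.38 for type IV and -0.69 to -0.18 for type VI chains over the fits that left out 1 library, with the low end always without treated replicate 3; without control replicate 2 the fibrillar median was -0.02. Collagen chains at an unadjusted p under 0.05, 4 with all libraries, numbered 10 without treated replicate 1 (7 higher, 3 lower), where 10.8% of all genes were under 0.05, and 7 without treated replicate 3. They numbered 9 with the replicate block (6 higher, 3 lower), where 9.43% of all genes were under 0.05, and 9 in limma-voom with sample weights (5 higher, 4 lower), where 11.6% were. In limma-voom the fibrillar and type IV medians were also below 0, at -0.09 and -0.14. Whether replicate numbers pair the libraries was not settled. Deviations of same-numbered treated and control libraries correlated at -0.0033, 0.42 and 0.31 for replicates 1, 2 and 3. Those of treated and control libraries with unlike numbers correlated at -0.38 to 0.19. With the number as a replicate block edgeR called 1 gene and 0 collagen chains, and Col1a1 (-0.18), Col3a1 (-0.12) and Col6a1 (-0.085) changed sign.

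Of 565 values of single genes under an alternative, 520 kept their sign and call, 2 gained a call and 43 changed sign; all 36 genes missed the threshold with all libraries in edgeR, so a change of sign is a change of an uncalled value. In limma-voom the changed values were -0.18 for Col1a1, -0.10 for Col3a1, -0.24 for Col4a4, -0.25 for Col6a1, -0.028 for Col6a3, -0.081 for Col8a1, 0.011 for Col7a1 and -0.015 for Prelp. With sample weights they were -0.63 for Col1a1, -0.54 for Col3a1, -0.56 for Col4a4, -0.53 for Col6a1, -0.063 for Col6a3, -0.21 for Col8a1, -0.072 for Col8a2, 0.0001 for Col7a1 and -0.25 for Prelp. Leaving out 1 library gave ranges of -0.85 to 0.51 for Col1a1, -0.73 to 0.46 for Col3a1, -0.0093 to 0.22 for Col4a2, -0.66 to 0.60 for Col4a4, -0.78 to 0.48 for Col6a1 and -0.24 to 0.39 for Col6a3. They were -0.12 to 0.31 for Col9a2, -0.52 to 0.26 for Col15a1, -0.57 to 0.76 for Col8a1, -0.32 to 1.34 for Col8a2 and -0.21 to 0.072 for Col7a1. They were -0.12 to 1.11 for Podn, -0.15 to 0.75 for Ogn and -0.51 to 1.08 for Prelp. The cause of these changes was not tested. The filter at 5 CPM left 29 members tested, and Col10a1, at 4 to 14 counts a library, had no value in 4 alternatives.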
